A study of Mus musculus with 36 samples.

Results

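The genes described here encode the subunits of the brain's receptors for glutamate and for GABA of the A type. They were taken by symbol from the mRNA table: the Gria, Grin, Grik, Grid and Grm genes of the glutamate receptors and the Gabr genes of the GABA-A receptors and their relatives. The symbols found 45 genes of the 22154 in that table. All 45 gene IDs carried the same symbol in the mouse reference table, and the genes lie on 13 chromosomes. The measurements were FPKM (fragments per unit of transcript length and of mapped fragments) from brain RNA, summed over the 110 transcripts that the table lists for these genes. Because FPKM is a value per transcript length, levels can be set side by side between genes.

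APP/PS1 mice carry the transgenes APP695swe and PS1-dE9, form amyloid plaques with age and were compared with wild-type (WT) mice. Both genotypes are labelled C57BL/6, and both were sampled at 6 and at 9 months of age. Each of the 4 groups had 3 long RNA libraries, named here by genotype, age and library number. The labels do not say whether each library is a different animal. The p-values therefore speak to the scatter among these libraries alone, part of which may be technical. The labels do not give the promoter of the transgenes, the number of transgenic lines or any pooling of animals.

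The genotype labels were checked by App, the gene carried by a transgene, which lay between 969.9 and 1029 FPKM in the 6 APP/PS1 libraries and between 433.3 and 453.0 FPKM in the 6 WT libraries. The protocol text names retinas while the tissue label of each sample reads brain. Of 9 photoreceptor and pigment epithelium markers, 6, among them Crx, Gnat1, Pde6a, Pde6b and Prph2, averaged under 0.2 FPKM, and all 9 together summed to at most 1.85 FPKM in any library. The 5 markers of neurons summed to between 1348 and 1466 FPKM. The summed FPKM of a library ran from 292540 to 301778, and since no counts are given the sequencing depth is unknown.

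Glutamate opens 3 classes of fast channel in the mammalian brain, named after the agonists AMPA, NMDA and kainate, and also acts on metabotropic receptors that signal through G proteins. GABA-A receptors are chloride channels assembled from several subunit types, most often alpha, beta and gamma, and carry most fast inhibition. The choice of subunits sets the kinetics, the calcium permeability and the place of a receptor at or outside the synapse. Amyloid peptides are known to disturb synaptic transmission, and loss of synaptic receptors is a studied feature of amyloid models.

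The NMDA subunit gene Grin1, which encodes the glycine-binding subunit that every NMDA receptor needs, had the highest mean level of the 45 genes, at 111 FPKM over the 12 libraries. Of the genes described here, the AMPA subunit gene Gria1 came after it at 91.1 FPKM. Below it were Grm5, Gria2, Gabrb2, Grin2a and Grin2b, between 73.7 and 63.9 FPKM. Neighbours in that order did not separate beyond the spread: Grm5 averaged 73.7 and Gria2 72.1 FPKM, and single libraries of each gene lay on both sides of the other's mean. Of the 45 genes, 27 (60%) averaged above 10 FPKM, against 28.4% of all genes in the table.

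At the other end, 7 genes stayed below the mean of 0.5 FPKM that was required for testing: Gabra6, Gabre, Gabrp, Gabrr1, Gabrr3, Grin3b and Grm6. Gabrp, a subunit known mainly outside the brain, was listed at 0 in all 12 libraries. Gabra6, the alpha subunit of cerebellar granule cells, reached at most 0.0240 FPKM. Of the 9 cerebellar neuron markers, 3 (Cbln3, Fat2 and Pcp2) were under 0.2 FPKM on average, while the other 6 were over 1 FPKM and the list summed to between 80.3 and 111 FPKM. Grm6, the metabotropic receptor of retinal ON bipolar cells, reached at most 0.00939 FPKM. Gabre was the highest of the 7 at 0.376 FPKM, and Gabrr2 was the lowest gene that passed, at 0.576 FPKM. The counts of tested genes below therefore concern 38 of the 45.

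The stretch before the start of transcription is shown for 3 members that stand for the range of these levels and of their spread: Grin1, the highest gene, Gabra2, whose libraries differed most among the well expressed members, and Gabra6, which was near 0. Each run gives the 250 bases 5′ of the annotated start on the gene's own strand, from RefSeq on GRCm38.p6, and capitals mark every CG dinucleotide, which reads the same on both strands. The positions are chr2:25319188-25319437 for Grin1, chr5:71095850-71096099 for Gabra2 and chr11:42321073-42321322 for Gabra6, all on the minus strand.
Grin1: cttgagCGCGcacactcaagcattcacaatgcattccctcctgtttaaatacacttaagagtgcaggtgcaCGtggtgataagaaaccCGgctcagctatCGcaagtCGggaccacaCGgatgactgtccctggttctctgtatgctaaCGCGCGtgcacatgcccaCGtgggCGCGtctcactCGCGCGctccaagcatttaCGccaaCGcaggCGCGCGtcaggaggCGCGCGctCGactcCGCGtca
Gabra2: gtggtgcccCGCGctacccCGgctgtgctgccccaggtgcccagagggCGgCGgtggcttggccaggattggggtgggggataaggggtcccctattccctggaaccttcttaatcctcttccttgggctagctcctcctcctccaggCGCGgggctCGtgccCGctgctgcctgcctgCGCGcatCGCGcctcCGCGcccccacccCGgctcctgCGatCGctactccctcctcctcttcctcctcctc
Gabra6: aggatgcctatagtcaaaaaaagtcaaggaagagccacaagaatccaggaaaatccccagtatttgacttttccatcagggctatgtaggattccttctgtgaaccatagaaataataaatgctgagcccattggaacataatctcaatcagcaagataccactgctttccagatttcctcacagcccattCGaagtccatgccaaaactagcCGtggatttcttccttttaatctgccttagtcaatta
The Grin1 stretch held 27 CG, a number reached by 9.50% of the 27025 genes in the promoter table. Gabra2 held 18, reached by 23.6% of genes, and Gabra6 held 2, with 28.0% of genes at that number or fewer. In all, 30 of the 45 members were in that table. The 23 of them that were tested had a median of 15 CG, the 7 below the level filter a median of 3, and all genes a median of 6. The range was wide within the tested members, with 0 CG in Gabra3 and 42 in Grik3, although Gabra3 averaged 33.8 FPKM and Grik3 17.3 FPKM. Gabre, below the filter, held 21. Where a gene had several listed starts, the one with the most CG was counted. The members not in the table include Grid1, Grin3a, Grin2a, Gria1, Gria3, Grik1, Grm4, Gabrd, Grm5 and Grin2b.

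**Figure D1:**
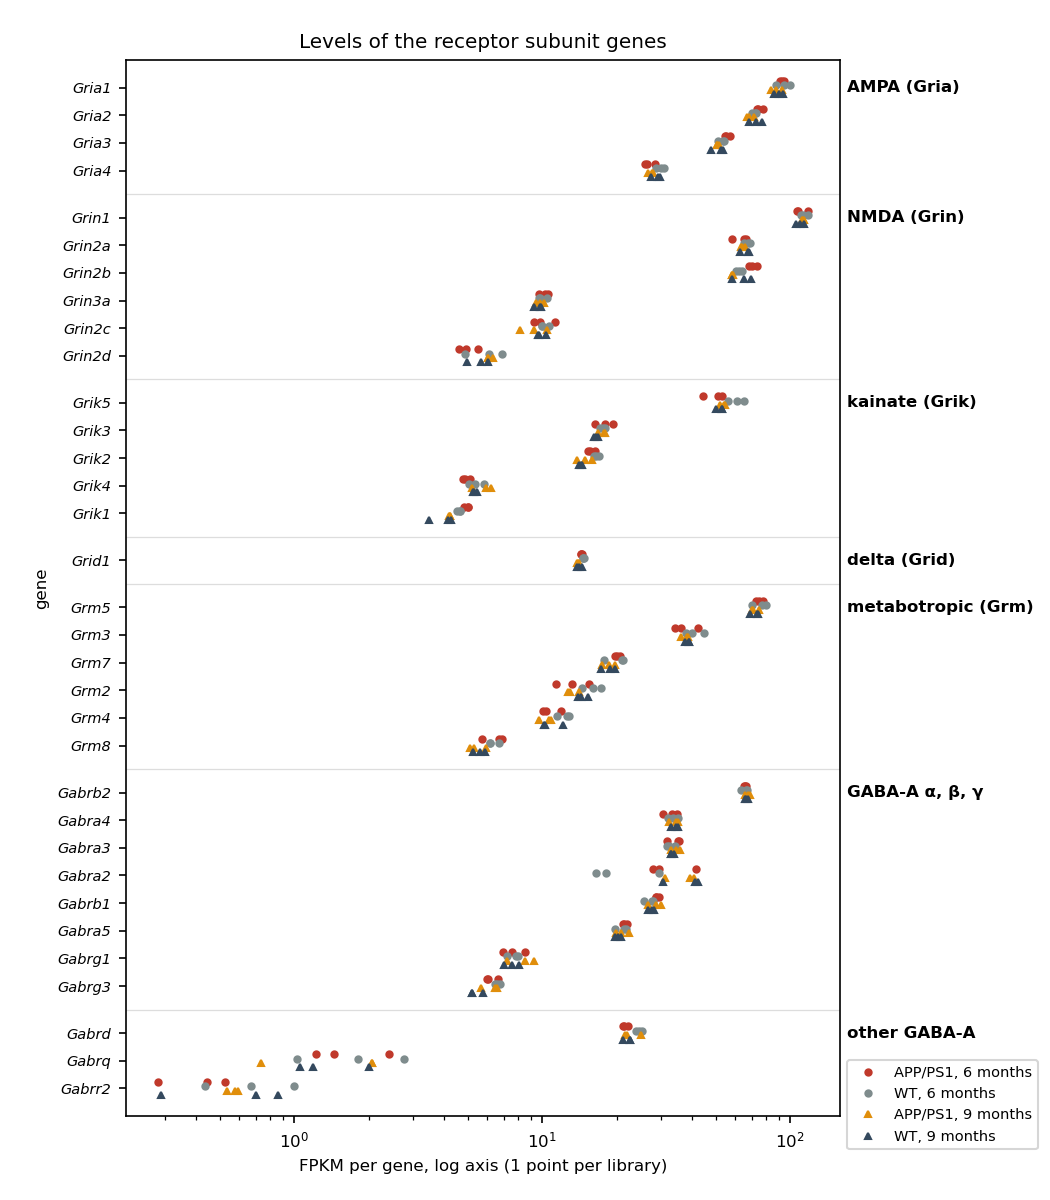
FPKM of 33 of the tested receptor subunit genes in each of the 12 libraries on a log axis, by receptor class and ordered by mean level within a class; each point is 1 library, red and orange for APP/PS1 and grey and dark blue for WT. The 4 groups fall on top of each other for most genes, from Grin1 at about 111 FPKM down to Gabrr2 at 0.576 FPKM, while the points of Gabra2, Gabrq and Gabrr2 are spread out.

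Most of these genes varied little. The 45 genes summed to between 1251 and 1302 FPKM per library, which was 0.416% to 0.445% of all FPKM. In 34 of the 38 tested genes the highest library was at most 1.5-fold above the lowest. The SD of the log2 values over the 12 libraries had a median of 0.10 for the 38 genes and 0.11 for all 13593 genes tested. Set against genes of like level, the members' SD had a median percentile of 47.9. Gabrb2, a beta subunit gene, was the steadiest member, with an SD of 0.03, and ranged only from 63.4 to 69.1 FPKM. Gabrq, at 0.74 to 2.77 FPKM, had the largest SD, 0.49, followed by Gabra2 with 0.45.

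No receptor subunit gene passed the test for a difference in any comparison. The test was limma on log2(FPKM + 0.25), with p-values adjusted by Benjamini-Hochberg over all 13593 genes and called under 0.05. Log2 changes are on that scale, where those of weakly expressed genes come out too small. For APP/PS1 against WT, 0 of 38 members were called at 6 months, where 0.0441% of all genes were, 0 at 9 months (0.0956%) and 0 over both ages (0.118%). For 9 against 6 months, 0 members were called in WT (0.0441% of all genes), 0 in APP/PS1 (0% of all genes) and 0 over both genotypes (0.0147%). Whether the genotype effect differed at 9 from that at 6 months was tested as well and called for 0 members and 0.00736% of all genes.

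Counts at an unadjusted p under 0.05 show which members came nearest to a difference. At 6 months 2 of 38 members were higher in APP/PS1 than in WT, beside 4.66% of all genes, and 5 were lower, beside 7.08%. The higher ones were Gabra2 and Grin2b, and the lower ones were Gabrd, Gria4, Grik5, Grm2 and Grm4. At 9 months 1 was higher (Gabrg3, 5.55% of all genes) and 1 lower (Grin2b, 4.17%). Over both ages 0 were higher (5% of all genes) and 3 lower (Gria4, Grik5 and Grm2, 5.42%). In both directions together, the shares of all genes were 11.7% at 6 months, 9.73% at 9 months and 10.4% over both ages, beside 7, 2 and 3 members.

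For 9 against 6 months in WT, 1 member was higher (Gabra2, 4.92% of all genes) and 5 were lower (Gabrd, Gabrg3, Grik1, Grik2 and Grik5, 5.33%). In APP/PS1 2 were higher (Grik4 and Grin2d, 8.45% of all genes) and 6 lower (Gria2, Gria3, Grik1, Grin2b and Grm8 among them, 4.68%). Over both genotypes 1 was higher (Gabra2, 6.96% of all genes) and 7 were lower (5.22%). The shares of all genes in both directions were 10.3% in WT, 13.1% in APP/PS1 and 12.2% over both genotypes, beside 6, 8 and 8 members. The genotype effect was higher at 9 than at 6 months for 5 members (Gabrd, Gabrg3, Grik4, Grik5 and Grin2d, 6.87% of all genes) and lower for 1 (Grin2b, 4.41%), together 6 beside 11.3% of all genes. The comparison of the genotypes at 6 months shares its WT libraries with the age comparison in WT and its APP/PS1 libraries with that in APP/PS1, so these counts do not stand apart from each other.

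In some members the groups did not overlap. At 6 months the APP/PS1 libraries lay above the WT libraries in 5 members (6.7% of all genes) and below in 4 (9.14%), 9 in all beside 15.8%. At 9 months they lay above in 2 (9.28% of all genes) and below in 1 (8%), 3 in all beside 17.3%. For 9 against 6 months in WT, 2 members lay above (8.55% of all genes) and 9 below (9.17%), 11 in all beside 17.7%. In APP/PS1 3 lay above (10.8% of all genes) and 5 below (6.73%), 8 in all beside 17.6%.

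The median log2 change of the members for APP/PS1 against WT was -0.01 at 6 months and 0.00 at 9 months, and that of all genes tested was -0.01 at 6 months and 0.01 at 9 months. Of the 38 members, 22 had a log2 change below 0 at 6 months (53.9% of all genes), 19 at 9 months (46.6%) and 20 over both ages (50.6%), and 15 had a lower genotype effect at 9 than at 6 months (44.7%). The 95% interval of the log2 change lay within 0.5 either side of 0 for 35 of the 38 members at 6 months and for 35 at 9 months. The exceptions at both ages were Gabra2, Gabrq and Gabrr2.

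**Figure D2:**
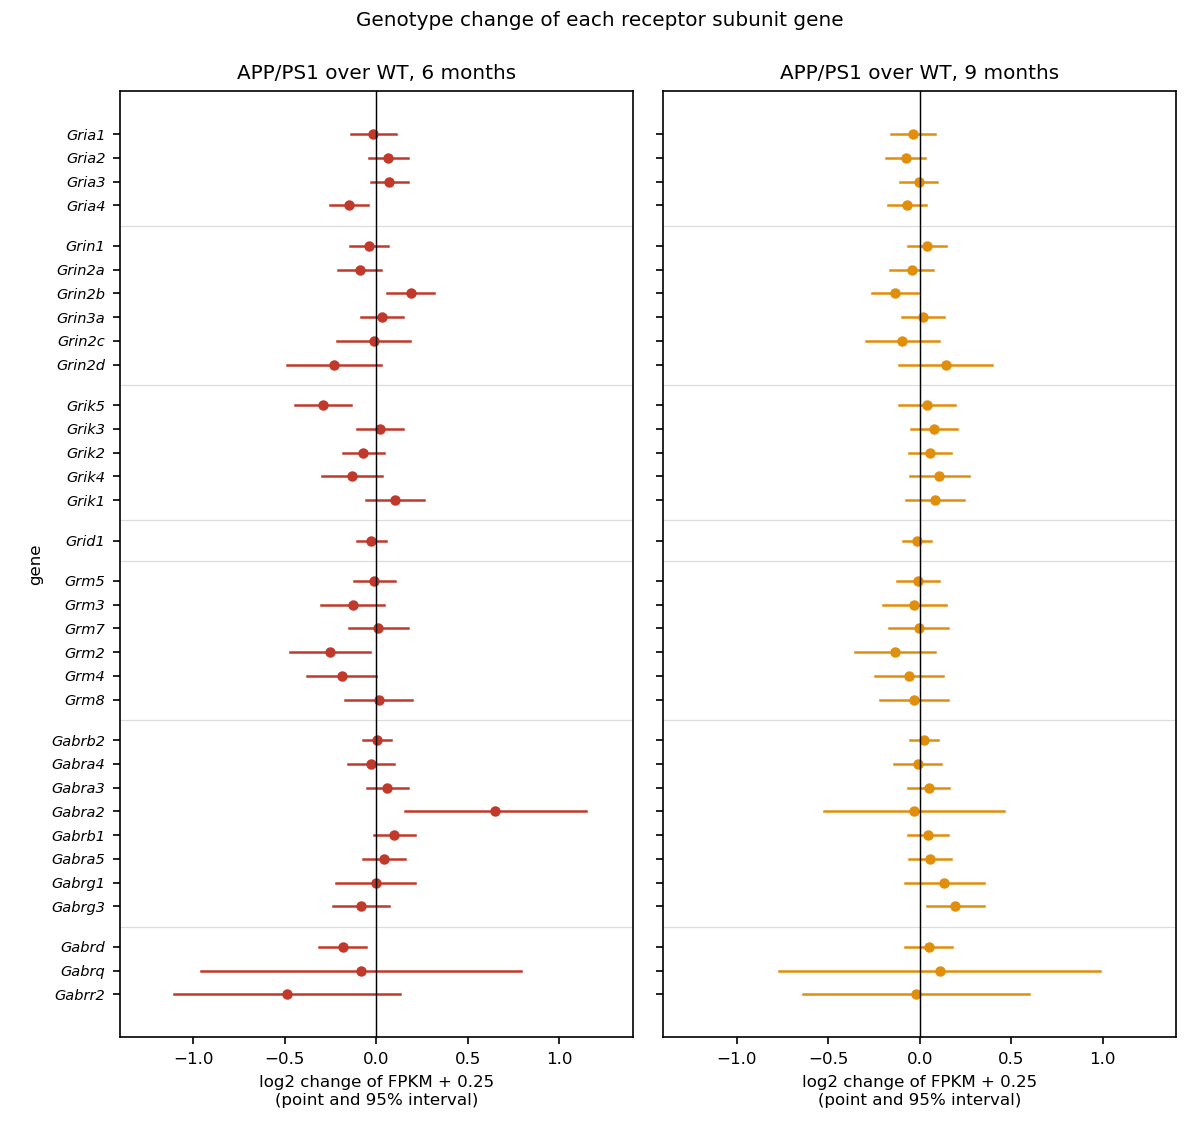
Log2 change of FPKM + 0.25 in APP/PS1 over WT at 6 months (left) and 9 months (right) for 33 of the tested receptor subunit genes, with points for the limma estimate and bars for its 95% interval. At 6 months Grik5 (-0.29) lies below 0 and Grin2b (0.19) and Gabra2 (0.65) above it, at 9 months most points lie close to 0, and none of the genes passed the adjusted test.

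The 4 AMPA receptor genes, which carry fast excitation, summed to 250 ± 1.82 FPKM in APP/PS1 and 249 ± 9.69 FPKM in WT at 6 months (SD, n = 3 each). At 9 months the sums were 235 ± 6.75 FPKM in APP/PS1 and 243 ± 10.1 FPKM in WT. Gria1 was the highest of the class, and its log2 change in APP/PS1 over WT was -0.02 at 6 months and -0.04 at 9 months. Gria2, whose edited form makes the channel impermeable to calcium, made up 28.2% to 31.0% of the class sum in every library.

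Gria4, a subunit gene prominent in fast-spiking interneurons and the lowest of the class, had 28.4, 26.1 and 26.4 FPKM in the APP/PS1 libraries of 6 months, against 31.0, 30.1 and 28.8 FPKM in the WT libraries. The 3 APP/PS1 libraries lay below the 3 WT libraries. The log2 change was -0.15 (SE 0.05, limma adjusted p = 0.283), and it was -0.07 at 9 months, where the groups overlapped, and -0.11 over both ages (SE 0.03, limma adjusted p = 0.313). Gria3 lay the other way at 6 months, with 54.6, 57.2 and 54.9 FPKM in APP/PS1 and 53.5, 54.2 and 51.0 FPKM in WT, without overlap (log2 0.07, SE 0.05, limma adjusted p = 0.587). In APP/PS1 libraries Gria2 was at 68.0, 71.3 and 67.0 FPKM at 9 months, against 73.2, 78.0 and 74.4 FPKM at 6 months. These ages did not overlap either, and the log2 change of 9 over 6 months was -0.13 (SE 0.05, limma adjusted p = 0.293). In WT libraries Gria2 ranged from 68.0 to 76.6 FPKM at 9 months and from 70.2 to 73.1 FPKM at 6 months, with overlap. Gria3 in APP/PS1 also lay below its values of 6 months in all 3 libraries of 9 months (log2 -0.12, SE 0.05, limma adjusted p = 0.308).

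Of the 7 NMDA receptor genes, 6 were tested. Grin1 made up 41.9% of the class sum, and its level was 110 ± 6.18 FPKM in APP/PS1 and 114 ± 3.47 FPKM in WT at 6 months, and 112 ± 0.958 FPKM in APP/PS1 and 109 ± 4.48 FPKM in WT at 9 months (SD, n = 3 each). The log2 change of Grin1 was -0.04 at 6 months and 0.04 at 9 months. The FPKM of Grin1 was divided over several transcripts. The largest, ENSMUST00000114310, held 30.3% of its FPKM, and 3 others held 26.0%, 21.0% and 14.3%.

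Grin2b encodes the GluN2B subunit, which dominates early in development and slows the channel. It had 70.4, 68.2 and 73.4 FPKM in the APP/PS1 libraries of 6 months, against 60.2, 62.1 and 63.9 FPKM in the WT libraries. All 3 APP/PS1 libraries lay above all 3 WT libraries. The log2 change was 0.19 (SE 0.06, limma adjusted p = 0.269), a 1.14-fold level. At 9 months Grin2b had 58.3, 58.5 and 58.5 FPKM in APP/PS1, against 64.9, 58.4 and 69.7 FPKM in WT. Now the APP/PS1 libraries sat at the low end of the WT range. The log2 change was -0.13 (SE 0.06, limma adjusted p = 0.487), -0.20 without WT 2 and -0.07 without WT 3, and the difference between the genotype effects of the ages was -0.32 (SE 0.08, limma adjusted p = 0.233).

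The same libraries, read by age, put Grin2b in APP/PS1 lower at 9 than at 6 months without overlap (log2 -0.27, SE 0.06, limma adjusted p = 0.125), the smallest adjusted p of any member in the 7 comparisons. In WT the log2 change of 9 over 6 months was 0.05. Its main transcript, ENSMUST00000053880, held 93.2% of the gene's FPKM and had a log2 change of 0.24 in APP/PS1 over WT at 6 months (limma adjusted p = 0.355 over all transcripts). With the marker scores of striatal neurons and choroid plexus as covariates, the log2 change of Grin2b at 6 months was 0.07 (limma adjusted p = 0.958), and the difference between the ages was -0.15. The log2 change of 9 over 6 months in APP/PS1 was -0.24 with those covariates.

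Grin2a encodes GluN2A, the subunit that takes over from GluN2B as synapses mature. The ratio of Grin2b to Grin2a was 1.06, 1.05 and 1.26 in the APP/PS1 libraries of 6 months, against 0.874, 0.916 and 0.984 in the WT libraries. At 9 months it was 0.890, 0.919 and 0.924 in APP/PS1 and 0.949, 0.932 and 1.03 in WT. The ratio was thus above 1 in all 3 APP/PS1 libraries of 6 months and in 1 of the other 9 libraries. No test was made of it, since the pair was picked after the values of both genes were seen. The highest ratio came from APP/PS1 3, which also had the lowest Grin2a level of the 12 libraries, 58.1 FPKM.

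Grin2d, a subunit gene of interneurons and deep brain nuclei, had 6.31, 6.06 and 6.06 FPKM in APP/PS1 at 9 months, against 5.67, 6.04 and 4.98 FPKM in WT. These groups did not overlap, by a narrow margin, and the log2 change was 0.14 (SE 0.12, limma adjusted p = 0.753), or 0.07 without WT 3. At 6 months it was -0.23 (SE 0.12, limma adjusted p = 0.474), with overlap. It was -0.45 without WT 1 and WT 3, which left WT 2 as the only WT library of that age. In APP/PS1 the 3 libraries of 9 months also lay above the 4.62, 4.91 and 5.49 FPKM of 6 months (log2 0.29, SE 0.12, limma adjusted p = 0.330). Grin2c, known from cerebellar granule cells and astrocytes, and Grin3a, a glycine-binding subunit gene, averaged 9.88 and 9.90 FPKM, with log2 changes between -0.10 and 0.03 for APP/PS1 against WT at either age. The minor Grin3a transcript ENSMUST00000093859 had 2.62, 1.48 and 1.30 FPKM in APP/PS1 at 9 months and 1.13, 1.27 and 0.94 FPKM in WT, while all 6 libraries of 6 months lay between 1.97 and 2.53 FPKM. Only APP/PS1 1 among the libraries of 9 months reached the range of 6 months (log2 0.54 for APP/PS1 over WT at 9 months, limma adjusted p = 0.674 over all transcripts).

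Kainate receptors pair the low-affinity subunits of Grik1, Grik2 and Grik3 with the high-affinity subunits of Grik4 and Grik5, which form no working channel alone. The class summed to 93.1 ± 6.12 FPKM in APP/PS1 and 105 ± 4.19 FPKM in WT at 6 months, and to 95.9 ± 1.55 FPKM in APP/PS1 and 92.2 ± 1.89 FPKM in WT at 9 months (SD, n = 3 each). Grik5 alone made up 56.0% of that sum. It had 53.1, 44.6 and 51.1 FPKM in the APP/PS1 libraries of 6 months, against 65.3, 60.8 and 56.0 FPKM in the WT libraries. The highest APP/PS1 library lay below the lowest WT library. This was a log2 change of -0.29 (SE 0.07, limma adjusted p = 0.177), a 0.817-fold level with a 95% interval of 0.735 to 0.908.

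At 9 months Grik5 had 54.7, 54.1 and 52.0 FPKM in APP/PS1, against 52.9, 50.03 and 53.3 FPKM in WT, so the groups overlapped (log2 0.04). The difference between the genotype effects of the ages was 0.33 (SE 0.10, limma adjusted p = 0.279). Within WT, 9 months lay below 6 months without overlap (log2 -0.22, SE 0.07, limma adjusted p = 0.339), and within APP/PS1 the log2 change was 0.11 with overlap. It was thus the 3 WT libraries of 6 months that were above the other 9. With the striatal and choroid plexus scores as covariates the log2 change at 6 months was -0.27 (limma adjusted p = 0.924), and without WT 1 and WT 3 of that age it was -0.30.

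Grik1, the gene of GluK1 and the lowest kainate member, had lower values at 9 months in both genotypes. In APP/PS1 it had 4.21, 4.24 and 4.23 FPKM at 9 months, against 5.03, 4.83 and 5.03 FPKM at 6 months. In WT it had 3.50, 4.28 and 4.19 FPKM at 9 months, against 4.55, 4.65 and 4.65 FPKM at 6 months. The ages did not overlap in either genotype, and these comparisons share no library. The log2 changes were -0.22 in APP/PS1 (SE 0.07, limma adjusted p = 0.240) and -0.20 in WT (SE 0.07, limma adjusted p = 0.381). Without WT 1 of 9 months, the lowest library, the change in WT was -0.12. Over both genotypes the change was -0.21 (SE 0.05, limma adjusted p = 0.173, lower in 6 of 6 libraries of 9 months), a 0.863-fold level. That comparison was added after the values were seen. The lower sum was not seen in the main transcript of Grik1, ENSMUST00000023652, which held 65.7% of its FPKM. That transcript averaged 3.38 FPKM at 9 months and 3.12 FPKM at 6 months in APP/PS1, and 2.58 and 2.61 FPKM in WT. ENSMUST00000072256 averaged 0.63 FPKM at 9 months and 1.57 FPKM at 6 months in APP/PS1, and 1.34 and 1.84 FPKM in WT. Transcripts were not tested for age.

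The remaining kainate genes did not separate by age in both genotypes. Grik2 had 14.0, 14.4 and 14.5 FPKM in WT at 9 months, against 16.2, 16.5 and 16.9 FPKM at 6 months, without overlap (log2 -0.21, SE 0.05, limma adjusted p = 0.269). In APP/PS1 its ages overlapped (log2 -0.08). Grik3 was above WT in all 3 APP/PS1 libraries of 9 months (log2 0.08, SE 0.06, limma adjusted p = 0.706). Grik4 in APP/PS1 had 6.20, 5.91 and 5.20 FPKM at 9 months, against 4.86, 4.80 and 5.10 FPKM at 6 months, without overlap (log2 0.22, SE 0.07, limma adjusted p = 0.258). Its log2 change in APP/PS1 over WT was -0.13 at 6 months and 0.11 at 9 months. The main Grik4 transcript, ENSMUST00000114865, held 77.4% of its FPKM and averaged 4.03 FPKM at 9 months and 3.98 FPKM at 6 months in APP/PS1. The other, ENSMUST00000034515, averaged 1.74 ± 0.62 FPKM at 9 months and 0.94 ± 0.64 FPKM at 6 months in APP/PS1 (SD, n = 3 each).

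**Figure D3:**
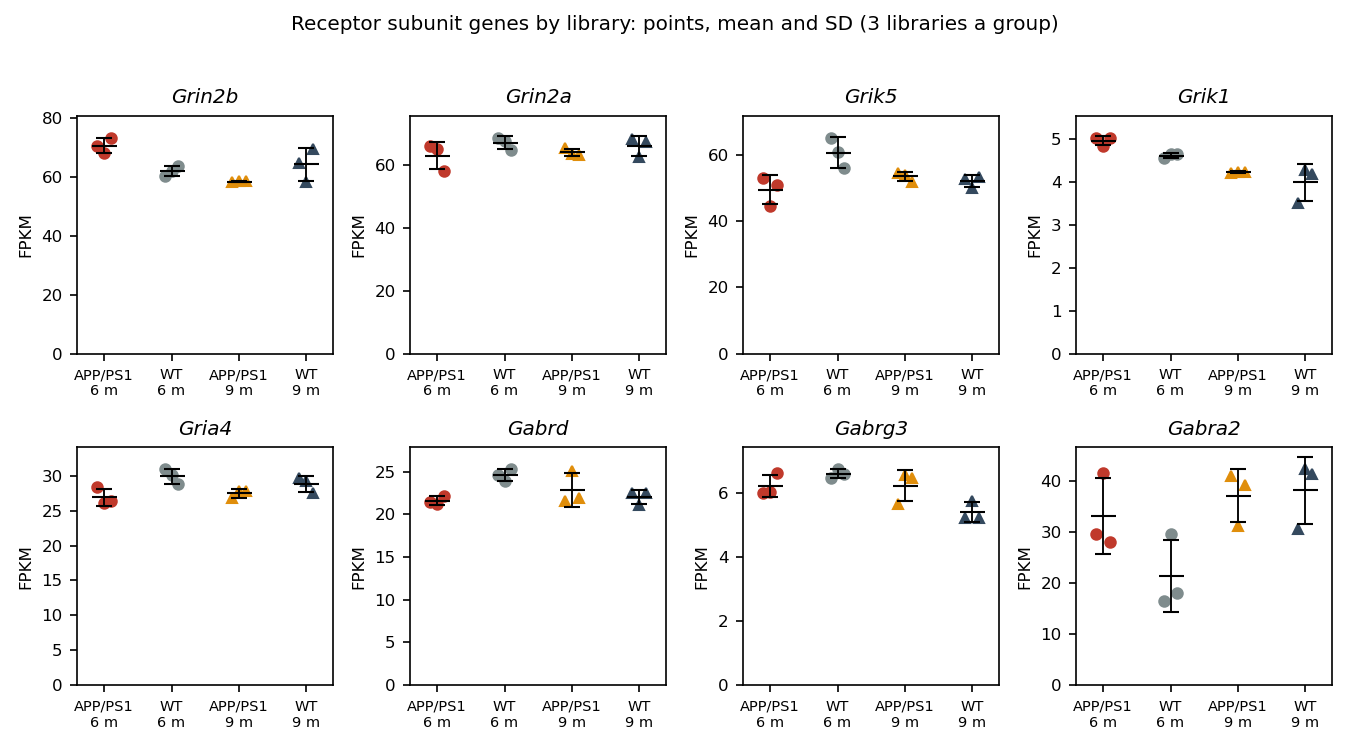
FPKM of 8 receptor subunit genes in each library, with points for libraries and lines for the group mean and SD (n = 3 each); within an age APP/PS1 stands left of WT. Grin2b is above WT and Grik5, Gria4 and Gabrd are below WT in all 3 APP/PS1 libraries of 6 months, Grik1 is lower at 9 months in both genotypes, and Gabra2 is spread out within each group.

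Grid1 encodes a delta receptor, a protein that binds cerebellins and holds synapses together. It had 14.4, 14.3 and 14.4 FPKM in APP/PS1 and 14.6, 14.6 and 14.7 FPKM in WT at 6 months. The groups did not overlap, yet the log2 change was only -0.03 (SE 0.04, limma adjusted p = 0.806). At 9 months Grid1 had 13.9, 14.0 and 13.9 FPKM in APP/PS1 and 14.1, 14.4 and 13.8 FPKM in WT. The values of 9 months lay below those of 6 months within each genotype, with log2 changes of -0.04 in APP/PS1 and -0.06 in WT.

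Of the 8 metabotropic receptor genes, Grm5, coupled to phospholipase C, was the highest and made up 40.7% of their sum. It was at 75.1 ± 2.14 FPKM in APP/PS1 and 75.7 ± 4.85 FPKM in WT at 6 months, and at 71.8 ± 2.55 FPKM in APP/PS1 and 72.2 ± 2.79 FPKM in WT at 9 months (SD, n = 3 each). Its log2 change was -0.01 at both ages.

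Grm2 and Grm4 encode receptors that lower cyclic AMP, and both were among the members with an unadjusted p under 0.05 at 6 months. Grm2 had 15.5, 11.4 and 13.2 FPKM in APP/PS1, against 17.2, 14.5 and 16.0 FPKM in WT. Grm4 had 11.9, 10.1 and 10.3 FPKM in APP/PS1, against 11.5, 12.6 and 12.8 FPKM in WT. In both genes APP/PS1 1 overlapped the WT range. The log2 change was -0.25 for Grm2 (SE 0.10, limma adjusted p = 0.371) and -0.19 for Grm4 (SE 0.09, limma adjusted p = 0.423). At 9 months it was -0.14 for Grm2 and -0.06 for Grm4. Grm8, a presynaptic receptor gene and the lowest tested metabotropic member, was lower at 9 than at 6 months over both genotypes (log2 -0.20, SE 0.06, limma adjusted p = 0.238). In WT its ages did not overlap, and in APP/PS1 they did. All 7 tested metabotropic genes had a log2 change below 0 for APP/PS1 against WT at 9 months, beside 46.6% of all genes. At 6 months 4 of 7 had one, beside 53.9% of all genes. Their median at 9 months was -0.03, and their smallest limma adjusted p was 0.593. In the same comparison all 4 AMPA genes lay below 0 and all 5 kainate genes above it. These counts were not tested.

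The alpha, beta and gamma subunit genes of the GABA-A receptor summed to 451 ± 22.5 FPKM in APP/PS1 and 433 ± 8.77 FPKM in WT at 6 months, and to 461 ± 8.14 FPKM in APP/PS1 and 454 ± 5.78 FPKM in WT at 9 months (SD, n = 3 each). Gabrb2, the gene of a common synaptic beta subunit, had a log2 change of 0.00 at 6 months, with a 95% interval of -0.07 to 0.08, and of 0.02 at 9 months, with an interval of -0.05 to 0.10.

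Gabra2 encodes the alpha subunit of many synapses on the axon initial segment and in the forebrain, and had the largest log2 change of the members at 6 months. It had 29.7, 41.7 and 28.0 FPKM in APP/PS1 at 6 months, against 16.5, 29.6 and 18.0 FPKM in WT. The groups overlapped, since WT 2 lay inside the APP/PS1 range, and WT 1 and WT 3 were the lowest of all 12 libraries. The difference came to 0.65 on the log2 scale (SE 0.22, limma adjusted p = 0.307), a 1.57-fold level with a 95% interval of 1.12 to 2.21. At 9 months Gabra2 had 41.1, 31.2 and 39.3 FPKM in APP/PS1, against 30.7, 42.4 and 41.5 FPKM in WT. The groups covered the same range (log2 -0.03, SE 0.22, limma adjusted p = 0.985), and the difference between the genotype effects of the ages was -0.68 (SE 0.32, limma adjusted p = 0.447). In WT the libraries of 9 months lay above those of 6 months (log2 0.86, SE 0.22, limma adjusted p = 0.269). That comparison and the one of the genotypes at 6 months share the WT libraries of 6 months.

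Put in order, the 12 values of Gabra2 fell into stretches with gaps between them. The 2 lowest libraries had 16.5 and 18.0 FPKM. After a gap of 9.99 FPKM came 5 libraries between 28.0 and 31.2 FPKM, and after a gap of 8.03 FPKM another 5 between 39.3 and 42.4 FPKM. Each of the 4 groups had libraries in more than 1 stretch. The other subunit genes of the same cluster on chromosome 5 did not move with it: Gabrb1 ran from 25.8 to 30.0 FPKM, Gabra4 from 30.6 to 35.4 FPKM and Gabrg1 from 6.95 to 9.30 FPKM. The table lists 1 transcript for Gabra2, so no shift between transcripts can be seen. The share of Gabra2 in the sum of the alpha subunit genes was 13.5%, 17.0% and 13.1% in APP/PS1 and 8.20%, 14.0% and 8.58% in WT at 6 months.

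The 2 lowest libraries of Gabra2 also stood apart in the sum of 8 markers of choroid plexus, the tissue that makes cerebrospinal fluid. These summed to 5.74 FPKM in WT 1 and 12.5 FPKM in WT 3 of 6 months, and to between 74.8 and 348 FPKM in the other 10 libraries. In those 10 libraries Ttr alone ran from 66.4 to 325 FPKM. Ttr, Kl, Folr1, Kcnj13 and Slc4a5 were each lowest in WT 1 and WT 3. Aqp1, Otx2 and Clic6 each had a lower value in one of the 10 than in WT 3. WT 1 was also lowest in the thalamic and midbrain markers, with a sum of 43.4 FPKM against 71.9 to 95.9 FPKM in the other 11 libraries. Among the 10 libraries with more choroid plexus signal the order was not kept: APP/PS1 1 of 9 months had 41.1 FPKM of Gabra2 with a marker sum of 113 FPKM, and WT 1 of 9 months had 30.7 FPKM with a sum of 306 FPKM. Leaving out WT 1 and WT 3 of 6 months left WT 2 as the only WT library of that age. The log2 change of Gabra2 was then 0.14 for APP/PS1 against WT at 6 months and 0.35 for 9 against 6 months in WT. With the striatal and choroid plexus scores as covariates these were 0.24 and 0.31. In such bulk tissue, fewer cells of a type and less RNA per cell cannot be told apart.

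**Figure D4:**
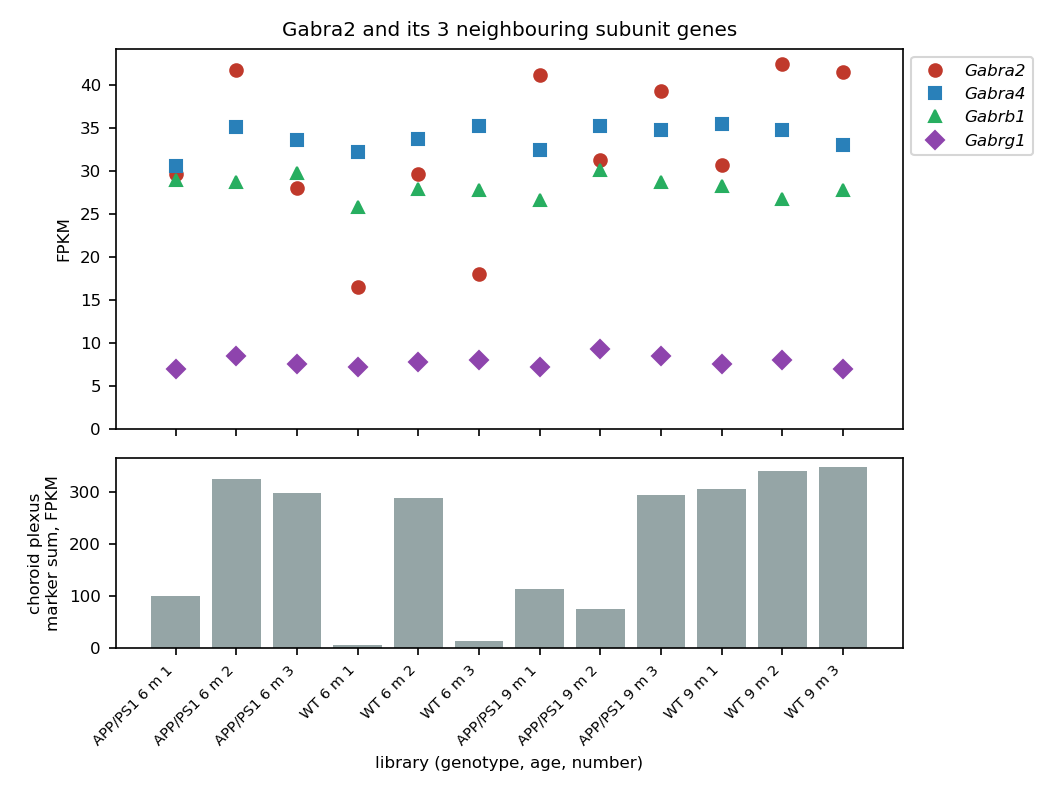
Upper panel, FPKM of Gabra2 and of Gabra4, Gabrb1 and Gabrg1, its neighbours on chromosome 5, in each of the 12 libraries; lower panel, summed FPKM of 8 choroid plexus markers in the same libraries. Gabra2 lies near 17, 30 or 41 FPKM while its neighbours stay level, and the 2 lowest Gabra2 values, 16.5 and 18.0 FPKM, are in the WT libraries with marker sums of 5.74 and 12.5 FPKM.

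Gabrg3, a gamma subunit gene of low level, was the member with the smallest p for APP/PS1 against WT at 9 months. It had 5.66, 6.56 and 6.47 FPKM in APP/PS1, against 5.23, 5.76 and 5.23 FPKM in WT. APP/PS1 1 lay inside the WT range and the other APP/PS1 libraries above it. The log2 change was 0.19 (SE 0.07, limma adjusted p = 0.392), and at 6 months it was -0.08. In WT the libraries of 9 months lay below the 6.47, 6.75 and 6.60 FPKM of 6 months (log2 -0.28, SE 0.07, limma adjusted p = 0.269), and in APP/PS1 the log2 change with age was 0.00. The difference between the genotype effects of the ages was 0.28 (SE 0.10, limma adjusted p = 0.340). Gabrg1, known from glia and the amygdala, had a log2 change of 0.00 at 6 months and 0.13 at 9 months, and Gabrb1 one of 0.10 (limma adjusted p = 0.487) at 6 months, where its APP/PS1 libraries lay above the WT libraries.

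Among the remaining GABA-A genes, Gabrd encodes the delta subunit of receptors outside the synapse that carry tonic inhibition. It had 21.4, 21.2 and 22.2 FPKM in APP/PS1 at 6 months, against 24.5, 23.9 and 25.3 FPKM in WT. The 3 APP/PS1 libraries lay below the 3 WT libraries (log2 -0.18, SE 0.06, limma adjusted p = 0.284). At 9 months Gabrd had 21.5, 25.1 and 21.9 FPKM in APP/PS1 and 22.5, 21.1 and 22.5 FPKM in WT, with overlap (log2 0.05). In WT the libraries of 9 months lay below those of 6 months (log2 -0.16, SE 0.06, limma adjusted p = 0.401), and the difference between the genotype effects of the ages was 0.23 (SE 0.08, limma adjusted p = 0.332). The 3 WT libraries of 6 months were among the 4 highest.

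Gabrq and Gabrr2, the genes of the theta and rho2 subunits, were too low and too variable for a narrow interval. Gabrq ran from 0.74 to 2.77 FPKM, and its log2 change of 0.11 at 9 months had a 95% interval of -0.77 to 0.98. Gabrr2 had 0.523, 0.283 and 0.443 FPKM in APP/PS1 and 0.669, 0.993 and 0.437 FPKM in WT at 6 months (log2 -0.49, SE 0.28, limma adjusted p = 0.537). Leaving out 1 library put that value between -0.70 and -0.27. Leaving out WT 1 and WT 3 put it at -0.92, with WT 2, the highest library of this gene, as the only WT library of that age. What size of difference could be detected in either gene with these libraries was not tested.

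The 8 striatal markers found in the table summed to 336, 341 and 313 FPKM in the APP/PS1 libraries of 6 months, against 428, 396 and 381 FPKM in the WT libraries, without overlap. At 9 months they summed to 318, 365 and 357 FPKM in APP/PS1, against 335, 337 and 304 FPKM in WT. Grik5, Gabrd, Gria4, Grm2 and Grm4, the members with a lower value in APP/PS1 and an unadjusted p under 0.05 at 6 months, did not pass the test, and Grm2 and Grm4 overlapped between the groups. With the striatal and choroid plexus scores as covariates the log2 change at 6 months was -0.27 for Grik5, against -0.29 without them. It was -0.12 for Gabrd, -0.04 for Gria4, -0.12 for Grm2 and -0.11 for Grm4. Because the striatal markers separated the genotypes at 6 months, a fit with their score as covariate cannot tell make-up and genotype apart. What part the make-up of the samples has in each difference was not tested. Astrocyte markers summed to between 617 and 661 FPKM in APP/PS1 and between 523 and 564 FPKM in WT at 6 months. Of these 5 markers, Aldh1l1 and Gja1 overlapped between the genotypes at that age, and the others did not. At 9 months the astrocyte sums overlapped, with 606 to 661 FPKM in APP/PS1 and 526 to 638 FPKM in WT. Microglia markers summed to between 65.1 and 66.9 FPKM in APP/PS1 and between 53.4 and 64.3 FPKM in WT at 6 months. Cx3cr1, P2ry12 and Trem2 lay above WT without overlap at that age, and Aif1 and Csf1r overlapped. Tmem119 lay the other way, with 9.38, 9.08 and 8.15 FPKM in APP/PS1 and 10.5, 10.3 and 9.90 FPKM in WT. At 9 months the microglia sums were 67.3 to 79.9 FPKM in APP/PS1 and 54.8 to 57.0 FPKM in WT, while Tmem119 and Aif1 overlapped.

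With age, more members had lower than higher values at 9 months. In WT 29 of 38 members had a log2 change of 9 over 6 months below 0, beside 51.4% of all genes, and their median was -0.05, against 0.00 for all genes. In APP/PS1 21 of 38 were below 0, beside 44.3% of all genes, with a median of -0.03, against 0.02 for all genes. Over both genotypes it was 27 of 38, beside 45.6% of all genes. The members below 0 in WT were 3 of 4 AMPA, 5 of 6 tested NMDA, all 5 kainate, both delta and 6 of 7 tested metabotropic genes, and 5 of 11 tested alpha, beta and gamma genes and all 3 other tested genes of the GABA-A receptor. None of these counts was tested, since the genes are not replicates. The summed ionotropic glutamate receptor genes over the summed GABA-A genes gave a ratio of 1.25 ± 0.0108 at 9 months and 1.33 ± 0.0818 at 6 months in APP/PS1, and of 1.29 ± 0.0574 at 9 months and 1.39 ± 0.0602 at 6 months in WT (SD, n = 3 each). The ages overlapped in both genotypes. In APP/PS1 the ratio ran from 1.240 to 1.262 at 9 months and from 1.238 to 1.394 at 6 months. In WT it ran from 1.225 to 1.330 at 9 months and from 1.329 to 1.448 at 6 months. The GABA-A sum in WT averaged 460 FPKM at 6 months and 479 FPKM at 9 months. Gabra2, which is part of it, averaged 21.4 FPKM and 38.2 FPKM.

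At the level of single transcripts, 79 of the 110 were tested. APP/PS1 differed from WT in 0 of the 79 at 6 months, where 0.0448% of all 22322 transcripts were called, and in 0 at 9 months (0.0627%). At an unadjusted p under 0.05 there were 8 transcripts at 6 months (8.66% of all transcripts) and 4 at 9 months (7.02%). They included the minor Gabrb2 transcript ENSMUST00000192403 at both ages, with log2 changes of -0.50 at 6 months (limma adjusted p = 0.575) and -0.56 at 9 months (limma adjusted p = 0.652). That transcript averaged 0.519 FPKM, 0.781% of its gene, close to the filter of 0.5 FPKM. Minor transcripts could differ widely within a group: ENSMUST00000003351 of Grin2c had 7.44 FPKM in WT 1 of 6 months and 0.0325 FPKM in WT 2. Of the 45 genes, 31 had several listed transcripts and 20 had at least 2 of 1 FPKM or more.

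Other genes of glutamate and GABA signalling were taken as lists. Of 76 listed genes for auxiliary subunits, scaffolds, the making and transport of glutamate and GABA, GABA-B receptors, glycine receptors and serine racemase, 75 were tested, and 0 were called in any of the 7 comparisons. At an unadjusted p under 0.05 there were 10 of the 75 for APP/PS1 against WT at 6 months, beside 11.7% of all genes, and 5 at 9 months, beside 9.73%. The smallest adjusted p for APP/PS1 against WT was that of Neto2, an auxiliary subunit gene of kainate receptors, over both ages (log2 0.15, SE 0.03, limma adjusted p = 0.123). At 9 months Neto2 had 19.1, 19.6 and 18.4 FPKM in APP/PS1, against 16.6, 16.2 and 16.7 FPKM in WT, without overlap (log2 0.20, SE 0.04, limma adjusted p = 0.130). At 6 months it had 19.7, 19.8 and 18.7 FPKM in APP/PS1, against 18.7, 17.8 and 18.2 FPKM in WT.

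Among the scaffold genes at 9 months, Homer1, which links metabotropic receptors to the postsynaptic density, had 88.6, 95.2 and 86.9 FPKM in APP/PS1, against 113, 96.8 and 109 FPKM in WT (log2 -0.23, SE 0.08, limma adjusted p = 0.373). Shank2, a postsynaptic scaffold gene, lay below WT in all 3 APP/PS1 libraries of that age as well (log2 -0.25, SE 0.08, limma adjusted p = 0.373). Trak1, a transport adaptor that binds GABA-A receptors, lay below WT without overlap at both ages, with log2 changes of -0.14 at 6 months (limma adjusted p = 0.318) and -0.12 at 9 months (limma adjusted p = 0.442). Camk2b, a subunit gene of the kinase that acts on AMPA receptors, had 212, 194 and 203 FPKM in APP/PS1, against 229, 224 and 224 FPKM in WT at 6 months (log2 -0.15, SE 0.05, limma adjusted p = 0.262). The AMPA receptor partner gene Cnih3 was above WT at 6 months in all 3 libraries, with 14.5, 21.3 and 19.9 FPKM in APP/PS1, against 14.0, 13.0 and 13.4 FPKM in WT (log2 0.44, SE 0.18, limma adjusted p = 0.379). At 9 months it had 14.3, 13.6 and 10.9 FPKM in APP/PS1, against 13.8, 20.8 and 13.6 FPKM in WT (log2 -0.29, limma adjusted p = 0.634), and the genotype effect at 9 minus that at 6 months was -0.73 (limma adjusted p = 0.330). None of these genes passed the test.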

How the data were processed

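RNA of 12 long RNA libraries (genotype and age groups of 3, from the sample titles) was analysed, and the circRNA, lncRNA and small RNA tables were not used. The deposited mRNA table holds FPKM per transcript, made by the authors, with no counts, so the depth is unknown and no counting interval can be given. The submitters' processing notes name Bowtie 0.12.2 and mm8 without their roles. The sources used here do not name the counting tool, the annotation or the strand setting.

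FPKM were summed per gene (48717 transcripts, 22154 genes). Tested were the 13593 genes, and likewise the 22322 transcripts, whose average over all libraries reached 0.5 FPKM, taken as log2(FPKM + 0.25) with limma 3.58.1 in R 4.3.3 (lmFit, contrasts.fit, eBayes with a trend) in 1 model of 4 group means, two-sided, with Benjamini-Hochberg adjustment and calls under 0.05. The model was checked on simulated data. Some members are counted in the totals, but their own values are not reported here.

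Named were, in each receptor class, the 2 members with the smallest p per comparison and those of highest and lowest level, and for the other lists up to 3 genes of smallest p each. The receptor genes, the lists and the markers were chosen with earlier results of these data known. Alternatives were other pseudocounts, filters, scaling, samples, a replicate block, marker scores as covariates and leaving out libraries. The comparison of the ages over both genotypes, the fit without WT 1 and WT 3 of 6 months, the Grin2b to Grin2a ratio and the minor Grin3a transcript were added after the values were seen. The fit without WT 1 and WT 3 left WT 2 as the only WT library of 6 months, so its values for that group rest on that library.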

Additional observations from a re-analysis of the deposited data

How the results depend on the processing

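No receptor gene was called under any of 21 other settings, and the lowest adjusted p of a gene (limma) was 0.0947. These settings covered the 7 comparisons, except that the fit with only the groups compared held just genotype within an age and age within a genotype. Transcripts were refitted only for genotype at 6 and at 9 months. Their settings were a pseudocount of 1, no filter, the replicate block and leaving out each library, and no receptor transcript was called. Of 1564 gene values of the members named here under the 21 settings, 6 changed sign. With the striatal and choroid plexus scores as covariates Gria4 for 9 against 6 months in WT came to 0.071. The other sign changes came from leaving out 1 library: for APP/PS1 against WT at 9 months Gabrd ran from -0.021 to 0.089, Gabrq from -0.10 to 0.52 and Grid1 from -0.032 to 0.00091. Leaving out 1 library moved 31 of 76 such member results by over 1.5 times.

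The counts over all genes were 6, 13 and 16 for APP/PS1 against WT at 6 months, at 9 months and over both ages, 6 and 0 for 9 against 6 months in WT and in APP/PS1, 2 over both genotypes, 1 for the difference between the ages, and 10 and 14 transcripts at 6 and 9 months. With a pseudocount of 1 the age comparison in APP/PS1 gave 3, and with one of 0.1 the genotypes over both ages gave 10. Without a filter the ages gave 1 in WT and 1 over both genotypes, and transcripts 18 at 6 and 22 at 9 months. A mean of at least 2 FPKM gave 3 at 6 months and 9 over both ages. With only the groups compared the counts were 3 and 12 for age in APP/PS1 and in WT, and 20 for genotype at 9 months. With the covariates they were 3, 7 and 7 for genotype at 6 months, at 9 months and over both ages, 0 for age in WT, 0 over both genotypes and 0 for the difference between the ages. Without WT 1 and WT 3 of 6 months they were 8 for genotype over both ages, 2 for age in APP/PS1, 2 in WT and 3 for the difference. The cause of these shifts was not tested.

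Same-numbered libraries did not deviate together more than others did. The deviations of 18 same-numbered pairs had a median correlation of 0.00685 (-0.12 to 0.13), and those of 36 other pairs 0.00108 (-0.15 to 0.16). Such correlations cannot show whether the numbers mark a pairing of the samples. With the replicate block 0 genes were called for age in WT, 1 over both genotypes and 3 transcripts at 6 months, and the receptor calls stayed at 0. Leaving out each library in turn gave 4 to 17, 5 to 14 and 8 to 17 genes for genotype at 6 months, at 9 months and over both ages, 0 to 13 and 0 to 5 for age in WT and in APP/PS1, 1 to 19 over both genotypes, 0 to 4 for the difference, and 8 to 26 and 11 to 27 transcripts at 6 and 9 months.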
